A study of Mus musculus with 7 samples.

Results

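The core circadian clock genes described here are 10 transcripts of the molecular clock, measured in mouse bone marrow by poly(A)-selected RNA sequencing. They were taken by gene symbol: the activators Arntl and Clock, the repressors Per1, Per2, Per3, Cry1 and Cry2, and the E-box target genes Nr1d2, Dbp and Tef. All 10 were found among the 49315 genes of the count table, and all 10 passed the filter on low counts, which left 17920 genes tested in all. The 3 control libraries are labelled miR-181a2b2flox/flox (flox, with WT in their titles) and the 4 knockout libraries miR-181a2b2-/- (KO). Every mouse, in both groups, was fed chow and had undergone hindlimb ischemia, in which blood flow to a leg is cut surgically. The sources used here do not give a Cre line, the age or sex of the mice, or the hour at which marrow was taken. No label ties a library to its own animal, and p-values therefore cover only the spread between these samples, possibly a technical one. Libraries of the same group differed beyond counting noise, with a chi-square per degree of freedom of 19 to 90.6 over the pairs, so none was counted as a repeat of another.

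The clock is a feedback loop of transcription. ARNTL (also called BMAL1) and CLOCK bind as a pair to E-boxes and switch on the Per and Cry genes, whose proteins return to the nucleus and block the pair. A second loop runs through the REV-ERB receptors (Nr1d1, Nr1d2), which repress Arntl through ROR elements, and the PAR bZIP factors DBP and TEF carry the rhythm to D-box genes. In a tissue with a running clock, Arntl peaks when Dbp, Nr1d1 and the Per genes are near their trough, with the activator and the E-box targets moving against each other over the day. In marrow, release of blood stem cells and of neutrophils follows the time of day, and Per1 also responds directly to glucocorticoids and to cAMP signals.

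Total counts ran from 43110251 to 51688514 per library. Blood cell genes were high, as in marrow, with 11 neutrophil genes summing to 33800 to 59700 CPM (counts scaled to library size). Because the labels' extraction protocol speaks of white adipose tissue, adipocyte genes were also read, and the 5 tested (Adipoq, Plin1, Fabp4, Cidec and Lipe) summed to 61.0 to 104 CPM in flox and 57.4 to 89.5 CPM in KO. Flox 1 stood apart in its B cell genes, as given below. In bulk marrow, fewer cells of a type and less RNA per cell cannot be told apart.

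Per length of exon, Per1 was the most abundant clock transcript and Dbp, Clock and Per3 were the least abundant. On the scale of CPM per kilobase of exon over the 7 libraries, Per1 stood at 24.9 ± 12.5 (SD, n = 7) and Cry1 at 7.80 ± 0.472. Next came Per2 at 3.03 ± 0.233, then Cry2 at 2.43 ± 0.324, Tef at 2.40 ± 0.380, Arntl at 2.36 ± 0.782 and Nr1d2 at 2.22 ± 0.196. Those last 4 levels did not differ beyond their spread. Per3 at 1.24 ± 0.200, Clock at 1.22 ± 0.0861 and Dbp at 1.2 ± 0.147 closed the order and were likewise within each other's spread.

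The question asked of the genotype comparison was whether any arm of the clock differs between KO and flox marrow. Arntl and Tef were higher in every KO library than in any flox library, and so, by a small margin, was Nr1d2. Per1 varied most of all but within genotypes. Clock, Per2, Cry1, Dbp and also Nr1d2 varied less over the 7 libraries than most genes of like level (19.3% to 33.3% of such genes had a smaller SD). None of the 10 passed an edgeR quasi-likelihood test at a Benjamini-Hochberg adjusted p of 0.05 over all tested genes (0 of 10, where 0.145% of all tested genes passed, 0.134% with KO higher and 0.0112% with KO lower). At an unadjusted p under 0.05 there were 3 of 10 (Arntl and Tef with KO higher, Per3 with KO lower), against 14.1% of all tested genes, 5.89% with KO higher and 8.17% with KO lower. By DESeq2, Arntl (adjusted p = 0.0194) and Tef (adjusted p = 0.041) passed, so the calls for these genes differ between the tools. KO and flox values did not overlap for 3 of 10 members, all with KO higher, where 6.22% of all tested genes had all KO above all flox, 7.41% all KO below all flox and 13.6% either. Over the 10 members, 6 fold changes were above 0 and 4 below, with a median log2 fold change (KO minus flox) of 0.07, against -0.00797 over all tested genes.

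**Figure D1:**
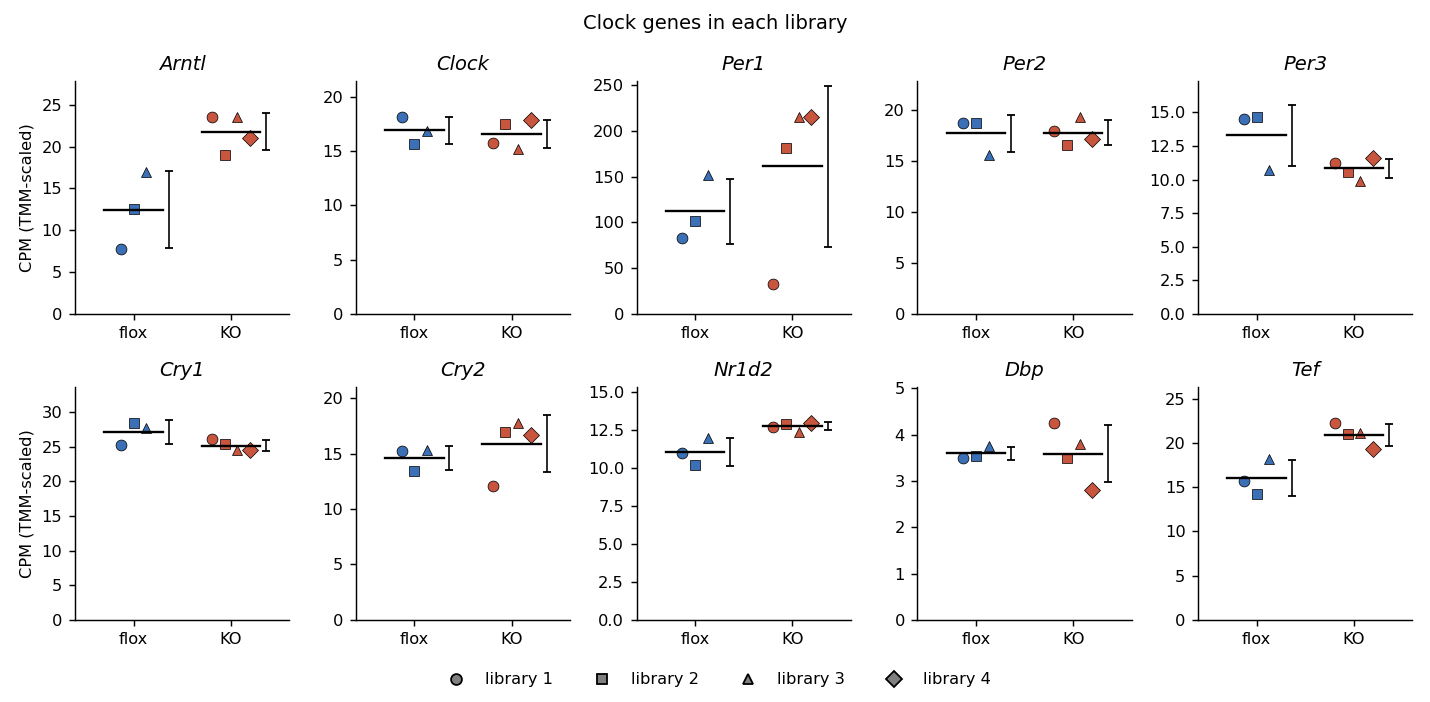
Level of each clock gene by library, as CPM on TMM-scaled library sizes (vertical axes, each starting at 0), in flox (blue, n = 3) and KO (red, n = 4). The symbol shape gives the library number, which pairs nothing between groups; horizontal lines are group means and bars to their right are 1 SD. Arntl, Tef and Nr1d2 show no overlap between groups, and Per1 in KO 1 lies at 32 CPM, below the other 6 libraries.

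Arntl (ENSMUSG00000055116, chr7:113207465-113314126 on the plus strand of GRCm38) encodes the activator without which the clock does not run. It stood at 7.77, 12.5 and 17.0 CPM in flox 1, flox 2 and flox 3, and at 23.6, 19.0, 23.5 and 21 CPM in KO 1 to KO 4. Every KO library was above every flox library, and the flox libraries differed more among themselves than the KO libraries did. The group means were 12.4 ± 4.60 CPM (SD, n = 3) and 21.8 ± 2.21 CPM (SD, n = 4). The log2 fold change was 0.81 ± 0.23 (SE), with a 95% interval from 0.28 to 1.35 (edgeR adjusted p = 0.231), and exact permutation (two-sided, 35 arrangements) gave p = 0.0286, the smallest possible here. Without flox 1, the lowest library, the log2 fold change was 0.56 (edgeR adjusted p = 0.270), and without flox 3 it was 1.10 (edgeR adjusted p = 0.082).

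Clock, the partner of Arntl (ENSMUSG00000029238), was not separated by genotype. Its values were 18.2, 15.7 and 16.9 CPM in flox and 15.8, 17.5, 15.2 and 17.9 CPM in KO, and the groups overlapped throughout. The log2 fold change was -0.03 ± 0.10 (SE), with a 95% interval from -0.24 to 0.19 (edgeR adjusted p = 0.944). The partners had unlike spreads, with SDs of log2 CPM over the 7 libraries of 0.58 for Arntl and 0.10 for Clock. Of the 1878 tested genes within 0.5 log2 units of the level of Arntl, 97.2% had a smaller SD than Arntl, and of the 1877 around Clock 22.2% had a smaller SD than Clock.

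Among the repressors, Per1 (ENSMUSG00000020893, chr11:69095217-69109960, plus strand) had the widest range of the 10 genes. It stood at 83.0, 102 and 152 CPM in flox, and at 32 CPM in KO 1 against 181, 216 and 216 CPM in KO 2, KO 3 and KO 4. KO 1 was the lowest of all 7 libraries, while the other 3 KO libraries were the highest. The comparison of groups gave, in log2, a difference of 0.52 ± 0.65 (SE), with a 95% interval from -1.07 to 2.12 (edgeR adjusted p = 0.798), and without KO 1 it was 0.86 (edgeR adjusted p = 0.333). Without flox 1 it was 0.34, and without flox 3 it was 0.80. Of the 1542 tested genes at a like level, 99.7% varied less than Per1.

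Per2 and Per3 did not share the pattern of Per1. Per2, the period protein gene most tied to the rhythm itself, was almost level, at 18.8, 18.8 and 15.6 CPM in flox and 18.0, 16.6, 19.4 and 17.2 CPM in KO (difference 0.01 ± 0.10 (SE) in log2, interval -0.22 to 0.23 at 95%, adjusted p by edgeR 0.987). Per3, a weaker member of the family, stood at 14.5, 14.7 and 10.7 CPM in flox and at 11.2, 10.6, 9.90 and 11.6 CPM in KO. Flox 1 and flox 2 were the highest Per3 libraries, and flox 3 lay among the KO libraries. The log2 fold change was -0.30 ± 0.13 (SE), with a 95% interval from -0.59 to -0.01 (edgeR unadjusted p = 0.0443, adjusted p = 0.344), with p = 0.114 by exact permutation.

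Of the cryptochromes, which carry the repression onto the ARNTL and CLOCK pair, Cry1 was the steadier. The SD of log2 CPM over the 7 libraries was 0.09 for Cry1 and 0.20 for Cry2, against 0.11 for Per2 and 0.22 for Per3. Cry1 ranged from 25.2 to 28.5 CPM in flox and from 24.5 to 26.2 CPM in KO (difference -0.11 ± 0.08 (SE) in log2, adjusted p by edgeR 0.560), and the difference was -0.17 without flox 1 and -0.06 without flox 2. Cry2 stood at 15.2, 13.4 and 15.3 CPM in flox and at 12.1, 17.0, 17.8 and 16.7 CPM in KO (difference 0.12 ± 0.14 (SE) in log2, adjusted p by edgeR 0.753), and without KO 1 the difference was 0.24. Cry2 was lowest in KO 1 and highest in the other 3 KO libraries, the same split as for Per1 but over a range of 1.47-fold, against 6.75-fold for Per1. Cry2 exons overlap those of the opposite-strand transcript D930015M05Rik over 295 bases. That transcript had 6 to 33 counts per library.

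Of the E-box targets outside the repressor families, Tef (ENSMUSG00000022389, chr15:81802421-81826863, plus strand) differed most. It stood at 15.7, 14.2 and 18.2 CPM in flox and 22.3, 21, 21.1 and 19.3 CPM in KO, with all KO libraries above all flox libraries. The log2 fold change was 0.38 ± 0.10 (SE), with a 95% interval from 0.15 to 0.61 (edgeR adjusted p = 0.206; exact permutation p = 0.0286). Nr1d2, the REV-ERB beta receptor gene, stood at 11, 10.2 and 12.0 CPM in flox and 12.7, 12.9, 12.4 and 13 CPM in KO, without overlap but with flox 3 and KO 3 close to each other (difference 0.21 ± 0.10 (SE) in log2, interval -0.01 to 0.42 at 95%, adjusted p by edgeR 0.373; exact permutation p = 0.0286).

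Dbp, in most tissues among the most strongly cycling transcripts, was low and level here. It had 123 to 202 counts per library, or 3.49, 3.55 and 3.76 CPM in flox and 4.26, 3.50, 3.80 and 2.80 CPM in KO. The flox libraries lay inside the KO range, and the log2 fold change was -0.0022 ± 0.17 (SE), with a 95% interval from -0.38 to 0.38 (edgeR adjusted p = 0.998). Dbp exons overlap over 539 bases with exons of Sphk2 on the opposite strand, a sphingosine kinase gene with 1983 to 2776 counts per library. No strand setting is known for the counting, so reads of Dbp and Sphk2 cannot be told apart in that stretch.

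**Figure D2:**
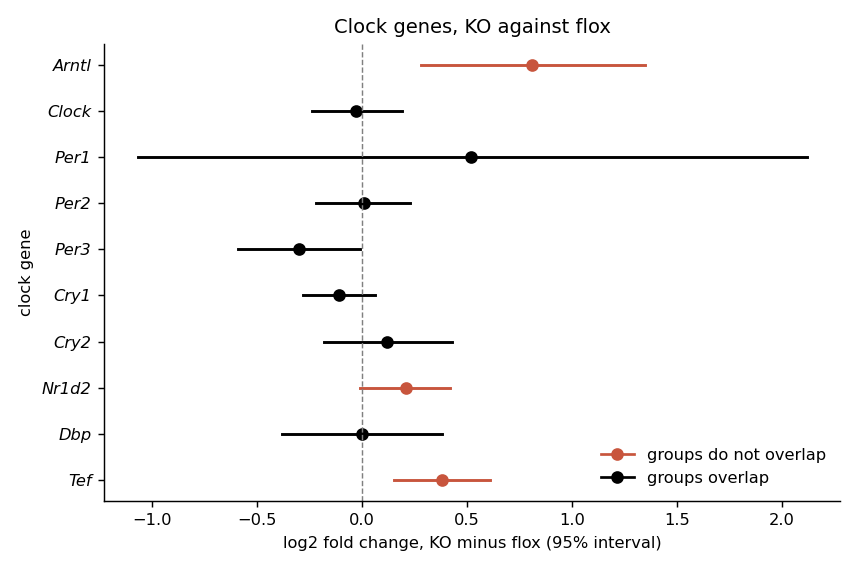
Log2 fold change of each clock gene, KO minus flox (horizontal axis), with its 95% interval from the edgeR quasi-likelihood fit (3 flox and 4 KO libraries). Red marks the 3 genes whose groups do not overlap; Arntl lies at 0.81 and Tef at 0.38, and the interval of Per1 runs from -1.07 to 2.12.

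The agreement between the limbs was then read library by library, as the deviation of each gene's log2 CPM from its mean over the 7 libraries. The hours of collection are not given, so these deviations do not assign a clock phase to any library. Arntl deviated by -1.10, -0.42 and 0.02 in flox 1, flox 2 and flox 3 and by 0.50, 0.19, 0.49 and 0.33 in KO 1 to KO 4. Of the 8 genes outside the activator pair, 2 to 4 deviated against Arntl in any library: 2 in flox 1 (Per2 and Per3), 3 in flox 2 (Per2, Per3 and Cry1), 3 in KO 1 (Per1, Per3 and Cry2) and 4 in KO 4 (Per2, Per3, Cry1 and Dbp). Per3 was the gene that deviated against Arntl in all 7 libraries, and Nr1d2 deviated with it in all 7. In flox 3, Arntl and Nr1d2 both lay within 0.02 of their means, so their signs there carry little.

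As a mean over its genes, the repressor limb deviated little except in KO 1, but the genes within it did not move together. The 5 Per and Cry genes had mean deviations of -0.04, 0.02 and 0.03 in flox and of -0.45, 0.10, 0.18 and 0.17 in KO. Nr1d2, Dbp and Tef together gave -0.13, -0.21 and 0.01 in flox and 0.20, 0.08, 0.11 and -0.06 in KO. The value in KO 1 comes from Per1 and Cry2, at -1.90 and -0.33, with Per2, Per3 and Cry1 between -0.07 and 0.02. In KO 2, KO 3 and KO 4, Per1 deviated by 0.60, 0.85 and 0.86, and the other repressors by -0.25 to 0.23. In flox 1, Per1 at -0.53 and Per3 at 0.30 went opposite ways, as did Per1 at 0.35 and Per2 at -0.19 in flox 3.

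**Figure D3:**
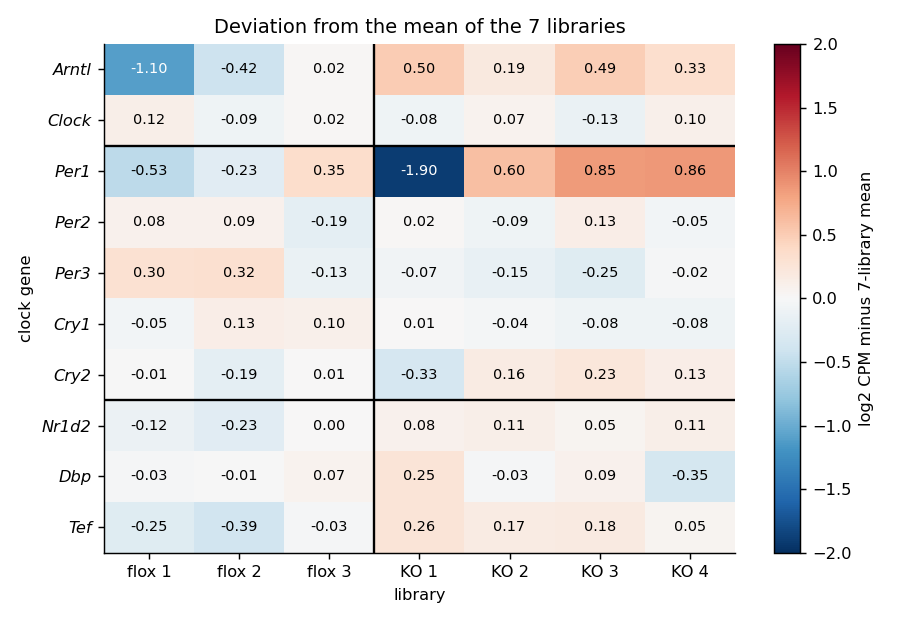
Deviation of each clock gene (rows, grouped as activators, repressors and other E-box targets) from its own 7-library mean in log2 CPM (colour and printed value) in each library (columns; the vertical line divides flox from KO). The strongest colours are Arntl in flox 1 (-1.10) and Per1 in KO 1 (-1.90), and no library shows activators and targets in opposite colours throughout.

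The difference within a library between Arntl and the mean of the 8 other genes, which cancels the scaling of libraries apart from the prior count, was -1.07, -0.40 and -0.05 log2 units in flox and 0.66, 0.05, 0.30 and 0.20 in KO. All KO libraries were above all flox libraries on this measure, with means of -0.51 ± 0.52 (SD, n = 3) and 0.30 ± 0.26 (SD, n = 4). The gap between those means was 0.81. Since Arntl enters the measure, the gap includes the Arntl difference itself. The lack of overlap is therefore not a result apart from that of Arntl, and does not show opposed limbs. The gap is a difference of mean log2 CPM, unlike the edgeR log2 fold change of Arntl, and is not set against it. Without flox 1 the gap was 0.52. With Dbp alone in place of the 8 genes it was 0.89, and with Per1 left out, an alternative chosen after its values were seen, 0.83.

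Across the 7 libraries, the r of Arntl was highest with Tef and Nr1d2 and lowest with Per3, though 0 of the 9 pairs passed after adjustment. Pearson r was 0.84 with Tef (exact permutation p = 0.0206, adjusted over the 9 pairs 0.112; Spearman rho 0.93, exact permutation p = 0.00675, adjusted 0.0607). With Nr1d2 it was 0.78 (exact permutation p = 0.0379, adjusted 0.114; rho 0.68, p = 0.110, adjusted 0.493), and with Per3 -0.85 (exact permutation p = 0.0248, adjusted 0.112; rho -0.57, p = 0.200, adjusted 0.530). Since flox lies below KO in Arntl, these values carry the difference between genotypes: centred within genotype they were 0.47, 0.32 and -0.69. Without flox 1 and flox 2, the libraries farthest from the median of Arntl, they were 0.78 with Tef, 0.41 with Nr1d2 and -0.08 with Per3, so the relation with Per3 rests on those libraries.

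For the classical antiphase partners 0 pairs passed. Opposite movement over the day could show across libraries only if marrow was taken at different hours. Those hours are not given, so these values cannot tell whether the clock runs in antiphase. With Dbp, r was 0.15 (exact permutation p = 0.708, adjusted 0.744; rho 0.54, p = 0.236, adjusted 0.530), and with Per2 it was -0.22 (exact permutation p = 0.629, adjusted 0.744; rho 0.04, p = 0.963, adjusted 0.963). With Per1, r was 0.16 (exact permutation p = 0.701, adjusted 0.744; rho 0.21, p = 0.662, adjusted 0.802). Without KO 1, the lowest library for Per1, the r of Arntl with Per1 was 0.97 (exact permutation, adjusted p = 0.025), over the other 6 libraries. In those 6, both genes were higher in every KO library than in every flox library, so this r carries the difference between genotypes. Over all 7 libraries, KO 1 included, the r with Per1 centred within genotype was 0.10. No centred r was computed for the 6 libraries without KO 1. The 0.10 therefore does not show how much of the 0.97 lies between genotypes. For Clock, Cry1 and Cry2, r lay at -0.43, -0.24 and 0.16, each with an adjusted exact permutation p of 0.744, and rho at -0.43, -0.32 and 0.18 (adjusted 0.636, 0.746 and 0.802). Without flox 1 and flox 2, r was 0.22 with Dbp, 0.94 with Per2, -0.37 with Per1, -0.63 with Clock, -0.62 with Cry1 and -0.21 with Cry2.

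The libraries ranked by Arntl in the order in which they ranked by B cell genes. A list of 15 B lineage genes (among them Cd79a, Pax5, Ebf1, Il7r and Rag2) had a mean log2 CPM of 2.30, 4.88 and 5.57 in flox 1, flox 2 and flox 3, and of 6.06, 5.69, 6 and 5.74 in KO 1 to KO 4. The summed level ran from 104 to 948 CPM in flox and from 1000 to 1290 CPM in KO, all 15 genes had counts, and all 15 had fold changes above 0, with 0 past the adjusted threshold and 2 at an unadjusted p under 0.05. Vpreb1, the surrogate light chain of pre-B cells, stood at 0.936 CPM in flox 1 and 7.81 to 27.4 CPM elsewhere. Arntl followed the list mean with r = 0.96 (exact permutation p = 0.000198, the smallest these permutations can give, adjusted over the 10 members 0.00198) and rho = 1 (exact permutation p = 0.000397, adjusted 0.00397). This relation was chosen after its values were seen. It was 0.96 without flox 1 and flox 2, and 0.96 centred within genotype. The part of B lineage cells in the Arntl difference between KO and flox was not tested.

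Tef followed the B lineage list less closely, and of the other 8 members 0 passed. For Tef, r was 0.69 (exact permutation p = 0.0601, adjusted 0.200; 0.83 without flox 1 and flox 2) and rho 0.93 (exact permutation p = 0.00675, adjusted 0.0337), and centred within genotype r was 0.31. For Nr1d2, r was 0.63 (exact permutation p = 0.147, adjusted 0.368; rho 0.68, p = 0.110, adjusted 0.365), and for Per3 -0.77 (exact permutation p = 0.0252, adjusted 0.126; rho -0.57, p = 0.200, adjusted 0.471). Without flox 1 and flox 2 these were 0.23 and -0.19, so both rest on those libraries.

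**Figure D4:**
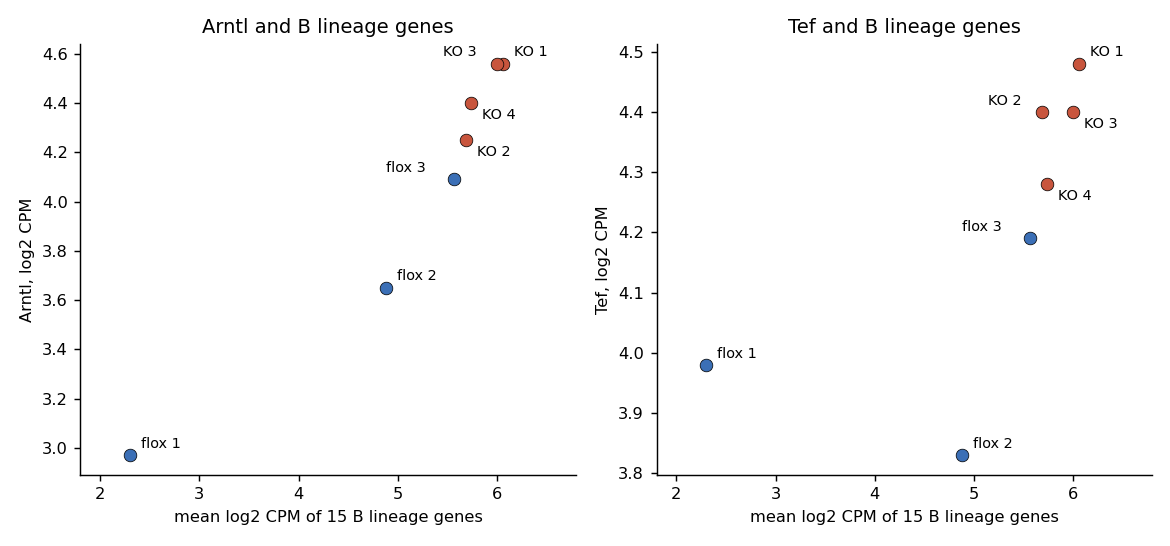
Log2 CPM of Arntl (left) and Tef (right) against the mean log2 CPM of 15 B lineage genes in the same library (flox blue, KO red, each point 1 library). Arntl rises with the B lineage mean from flox 1 (2.30 on the horizontal axis) to KO 1 (6.06) with the libraries in the same order on both axes, while for Tef flox 2 lies below flox 1.

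A search among 11088 protein-coding genes for the patterns most like that of Arntl gave Bcl7a (r = 0.997), a chromatin remodelling subunit gene, Rag2 (r = 0.993), a recombinase of developing lymphocytes that is itself in the B lineage list, and Rnf157 (r = 0.993). Bcl7a stood at 30.3, 52.6 and 82.1 CPM in flox and at 114, 84.7, 115 and 96.7 CPM in KO. Rag2 stood at 0.697, 2.58 and 4.85 CPM in flox and at 8.47, 5.46, 8.31 and 6.05 CPM in KO. For Dbp the nearest were Rin3 (r = 0.973), Tlr12 (0.951) and Saysd1 (0.944), and for Per1 they were Zscan25 (0.986), Gpatch3 (0.983) and Zfp61 (0.981). These are the highest of 11088 values over 7 libraries that share depth and cell makeup, and are given as a description.

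Per1 in KO 1 was set beside other genes that glucocorticoids or acute stimuli induce. KO 1 lay 2.67 log2 units below the mean of the other 3 KO libraries for Per1 (6.35-fold), and of the 17920 tested genes 2 lay further below in KO 1, Arhgap27os2 and Plb1, both with a mean log2 CPM under 0 and named after their values were seen. Of 9 glucocorticoid-induced genes apart from Per1, KO 1 was the lowest of the KO libraries in 7 and the lowest of all 7 libraries in 5, against 27.9% and 16.1% of all tested genes. The mean log2 CPM of those 9 genes was 5, 4.94 and 5.13 in flox and 4.57, 5.19, 5.38 and 5.4 in KO. Low values in KO 1 were not confined to that list. Of the 12 tested clock output genes described below, KO 1 was the lowest KO library in 6. It was the lowest of all 7 libraries in 5 (41.7%) and the highest in 1. Their mean log2 CPM was 4.93, 5.04 and 4.95 in flox and 4.72, 4.9, 4.94 and 4.96 in KO. The output and glucocorticoid lists share Pdk4, named after its values were seen. Klf9, a glucocorticoid-induced repressor gene, had 10.5 CPM in KO 1 and 19.3 to 31.4 CPM in the other libraries. Ddit4, an inhibitor of mTOR signalling, had 49.5 CPM in KO 1 and 59.6 to 123 CPM elsewhere. Both were named after their values were seen.

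Immediate early genes stood the other way in KO 1. Of 24 such genes apart from Per1, KO 1 was the lowest KO library in 0 and the highest of all 7 libraries in 13 (54.2%, against 14.7% of all tested genes). Their mean log2 CPM was 4.31, 4.25 and 4.29 in flox and 5.13, 4.99, 4.75 and 4.69 in KO. In the glucocorticoid and immediate early lists, KO 2, KO 3 and KO 4 had higher means than every flox library. KO 1 had the lowest glucocorticoid mean and the highest immediate early mean of the 7 libraries. Dusp1 is in both lists, so they are not fully separate. Per1 was thus low in the library in which Egr1 (41.0 CPM in KO 1, 7.56 to 35.6 CPM elsewhere) and Fosb (20.0 CPM in KO 1, 0.656 to 11.9 CPM elsewhere), transcription factors induced within minutes of a stimulus, were high. The part of glucocorticoid or immediate early signals in the Per1 values was not tested.

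**Figure D5:**
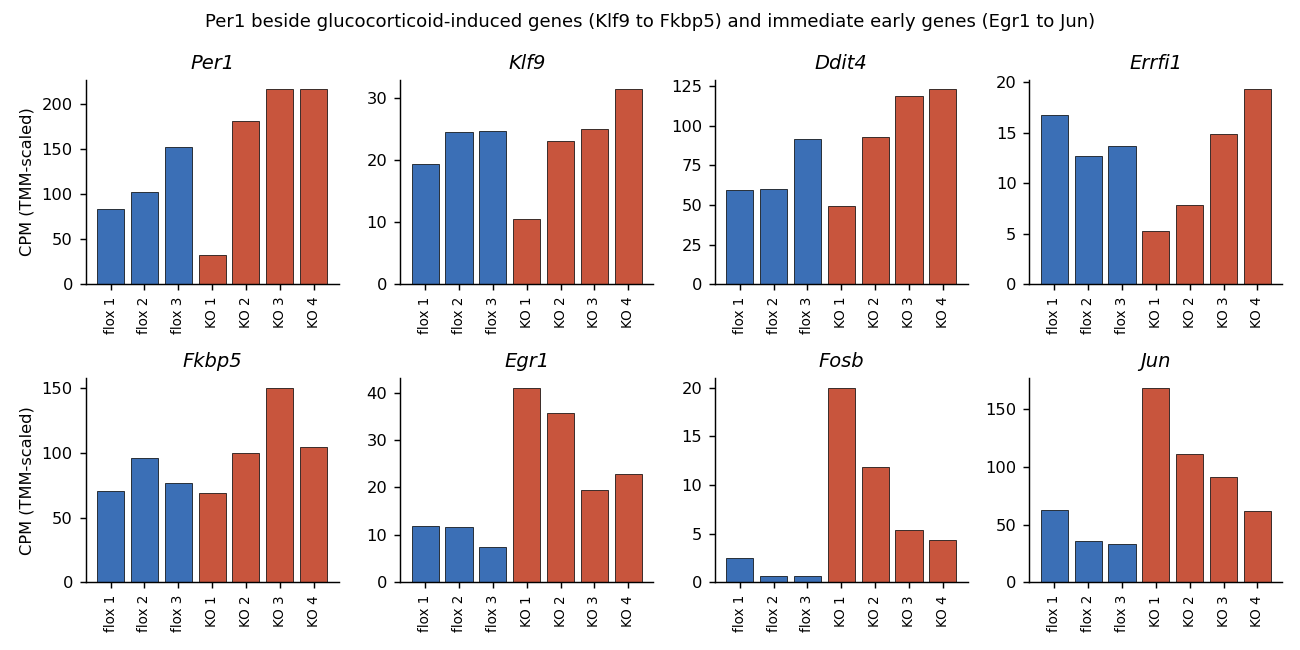
CPM on TMM-scaled library sizes (bars, axes from 0) of Per1, of 4 glucocorticoid-induced genes (Klf9, Ddit4, Errfi1, Fkbp5) and of 3 immediate early genes (Egr1, Fosb, Jun) in each library (flox blue, KO red), chosen after their values were seen. KO 1 has the lowest bar for Per1 (32) and for the 4 glucocorticoid-induced genes, and the highest for the 3 immediate early genes. Of all 9 glucocorticoid-induced genes apart from Per1, KO 1 was the lowest of the 7 libraries in 5. It was not the lowest for Dusp1, Tsc22d3, Sgk1 and Zbtb16, which are not shown. Of all 24 immediate early genes apart from Per1, KO 1 was the highest in 13.

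Between genotypes, 0 of the 10 tested glucocorticoid-induced genes (Per1 included) passed the adjusted edgeR threshold. Tsc22d3, the leucine zipper gene GILZ, gave a log2 difference of 0.47 ± 0.12 (SE) (edgeR adjusted p = 0.206), Dusp1 0.55, Sgk1 0.16 and Fkbp5 0.38. The list median was 0.27, with 6 values above 0 and 4 below, and 1 gene (Tsc22d3) at an unadjusted p under 0.05. Of the 25 immediate early genes 0 passed the adjusted threshold, 14 had an unadjusted p under 0.05 with KO higher, and the median was 0.52. The lowest p were those of Dusp2 (1.24), Egr1 (1.52), Jund (0.52) and Junb (0.50), with edgeR adjusted p from 0.151 to 0.171.

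The rest of the clock machinery gave fold changes on both sides of 0. Of a list of 26 further clock genes, 23 were tested and 0 passed the adjusted edgeR threshold, with 12 fold changes above 0 and 11 below and a median of 0.01. At an unadjusted p under 0.05 there was 1, Fbxw11, an F-box gene whose ligase degrades PER proteins (-0.16, SE 0.07, edgeR adjusted p = 0.347). The next by p were its paralog Btrc (0.29), the E-box repressor gene Ciart (0.45) and Rora, an activator of Arntl (0.45), with edgeR adjusted p from 0.388 to 0.509. Nr1d1, the REV-ERB alpha gene and the closest relative of Nr1d2, had 3.43, 2.83 and 2.69 CPM in flox and 2.66, 3.46, 3.23 and 3.07 CPM in KO (difference 0.06 ± 0.17 (SE) in log2, adjusted p by edgeR 0.926), and its groups overlapped. The D-box repressor gene Nfil3, which opposes DBP and TEF, gave -0.13 ± 0.13 (SE) (edgeR adjusted p = 0.701). Arntl2 (1 to 15 counts), Rorb (1 to 4) and Fbxl21 (4 to 26) were below the count filter.

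Of 14 genes reported as clock outputs in other tissues, 13 were in the table under the listed symbol and 12 were tested, and 0 passed the adjusted edgeR threshold. Their median log2 fold change was -0.15, with 3 above 0 and 9 below. The lowest p were those of the lipid receptor gene Ppard (-0.21, edgeR adjusted p = 0.346), Klf10 (-0.24, 0.373), the cell cycle inhibitor gene Cdkn1a (0.34, 0.378) and Lonrf3 (-0.34, 0.395). Wee1, a mitosis kinase gene with E-boxes in its promoter, gave 0.11 (edgeR adjusted p = 0.637), and Nampt, the rate-limiting enzyme gene of NAD salvage, -0.18 (0.467). Gys2, a liver output, had 0 counts in all 7 libraries.

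The promoters of the genes that varied most are shown because they hold different clock elements. RefSeq windows on GRCm38.p6, from 250 bases before to 50 bases after a start site, were found for 9 of the 10 members (14 windows, Per2 without one). They were searched on both strands for the E-box CACGTG, the D-box TTATGTAA or TTACGTAA, the ROR element TAGGTCA or TGGGTCA, and the cAMP element TGACGTCA. In the windows printed here capitals mark these motifs.
Arntl, second window (chr7:113207261-113207560, plus strand): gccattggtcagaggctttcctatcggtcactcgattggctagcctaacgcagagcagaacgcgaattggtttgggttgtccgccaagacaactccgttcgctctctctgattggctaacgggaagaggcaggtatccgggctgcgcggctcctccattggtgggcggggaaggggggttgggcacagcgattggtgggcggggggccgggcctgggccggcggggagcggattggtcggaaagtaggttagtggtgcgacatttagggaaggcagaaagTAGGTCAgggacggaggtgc
Per1, first window (chr11:69098699-69098998, plus strand): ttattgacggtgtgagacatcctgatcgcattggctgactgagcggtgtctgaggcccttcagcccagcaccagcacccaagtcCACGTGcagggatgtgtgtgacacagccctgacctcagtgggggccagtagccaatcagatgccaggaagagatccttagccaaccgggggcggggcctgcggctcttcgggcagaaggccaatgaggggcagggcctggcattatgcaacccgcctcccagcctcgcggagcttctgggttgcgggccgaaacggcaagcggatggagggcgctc
Per3 (chr4:151044616-151044915, minus strand): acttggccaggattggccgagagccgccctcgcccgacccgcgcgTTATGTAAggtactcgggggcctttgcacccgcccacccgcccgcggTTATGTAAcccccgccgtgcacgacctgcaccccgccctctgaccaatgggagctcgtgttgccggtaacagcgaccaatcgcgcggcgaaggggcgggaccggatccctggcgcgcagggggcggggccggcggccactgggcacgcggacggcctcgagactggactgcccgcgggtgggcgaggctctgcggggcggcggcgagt
Tef, first window (chr15:81802423-81802722, plus strand): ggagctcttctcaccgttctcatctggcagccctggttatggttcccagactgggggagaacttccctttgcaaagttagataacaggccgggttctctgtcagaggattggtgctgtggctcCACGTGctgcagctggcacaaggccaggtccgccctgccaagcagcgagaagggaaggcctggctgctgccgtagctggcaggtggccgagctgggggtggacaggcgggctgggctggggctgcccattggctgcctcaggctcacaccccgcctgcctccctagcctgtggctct

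The Arntl window holds 1 match to the ROR letters searched, whose first base is base 31 after the start site, and no E-box. Other spellings of the ROR element were not searched. Matches to the ROR letters were in 6.45% of all 32851 promoter windows (5.31% of windows of tested genes). Per1 and Tef hold an E-box, first base at -166 and -127 from their starts, the second Tef window holds another at -138, and Cry1 1 at -60. E-boxes were in windows of 3 of the 9 members and in 7.15% of all windows (9.32% of windows of tested genes). Per3 holds 2 D-boxes, first bases at -205 and -158, a motif in 1.06% of all windows (0.736% of windows of tested genes). The full cAMP element was in 0 of the 14 windows and in 1.79% of all windows (2.73% of windows of tested genes). Its shorter form TGACG was in windows of 3 members (Per1, Cry1 and Cry2) and in 20.8% of all windows (28.5% of windows of tested genes). Counts of members, some with more than 1 window, and shares of single windows are unlike measures and cannot be compared directly. The matches describe letters in short windows, and elements farther away were not searched.

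The deleted cluster, of the genes Mir181a-2 and Mir181b-2, codes for miR-181a and miR-181b. Whether other loci still supply these microRNAs in KO was not examined. Both share the seed ACAUUCA, so the 3' UTRs of the members were searched for its match TGAATGT. In the mature sequences from RefSeq (GRCm38.p6, chromosome 2, plus strand) capitals mark the seed, bases 2 to 8.
mmu-miR-181a-5p (chr2:38852741-38852763): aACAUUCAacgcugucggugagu
mmu-miR-181b-5p (chr2:38853845-38853868): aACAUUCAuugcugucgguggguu

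Taking for each gene its longest 3' UTR in GENCODE M21, 6 of the 10 members held a site: Clock and Nr1d2 with 2 each, and Per2, Per3, Cry1 and Cry2 with 1 each. Of the 14268 tested genes with a 3' UTR, 17.8% held a site, over a median 3' UTR of 1128 bases. The member UTRs with a site ran from 612 bases (Cry1) to 6831 bases (Clock). The only 8mer, with an A after the match, was the second site of Nr1d2, 5.81% of the tested genes holding at least 1. The 6 sites outside Clock are shown, with the match in capitals and in transcript orientation (all minus strand, GRCm38).
Nr1d2, second site (chr14:18204054-18204079): caatataaagtttgcTGAATGTAtga
Nr1d2, first site (chr14:18206427-18206454): gaattataatcacacTGAATGTtagact
Per3 (chr4:151003889-151003916): tgtgtgttgtagactTGAATGTctacat
Per2 (chr1:91416355-91416382): ttctctcttctctctTGAATGTttacca
Cry1 (chr10:85132145-85132172): tttttaactttttaaTGAATGTcatata
Cry2 (chr2:92405630-92405657): acactctcatgatccTGAATGTtgcctg

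Arntl (3' UTR of 507 bases) and Tef (3182 bases), both without overlap between KO and flox, held no such site, nor did Per1 (803 bases) or Dbp (323 bases). Of the 6 members with a site, Nr1d2 alone had groups that did not overlap, and the log2 fold changes of the 6 ran from -0.30 (Per3) to 0.21 (Nr1d2). Over all tested genes the median log2 fold change was -0.016 for 2540 genes with a site and -0.018 for 11728 without. Poly(A)-selected libraries do not measure mature microRNAs, so the level of miR-181a and miR-181b in these samples was not analysed here.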

How the data were processed

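Whole-number read counts per Ensembl gene were deposited by the authors, 1 column for each library. The submitters' processing notes name Trimmomatic 0.36, STAR 2.5.2b, featureCounts in Subread 1.5.2, and GRCm38, without their settings. Columns were matched to libraries by name. Symbols and exon lengths came from GENCODE M21 (49056 of 49315 IDs matched). Depth was 43110251 to 51688514 counts.

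In edgeR 4.0.16 (R 4.3.3) the filter was filterByExpr (minimum count 10), scaling was TMM, and KO was compared with flox by robust glmQLFit and glmQLFTest. CPM are on TMM-scaled library sizes, and log2 CPM has a prior count of 2. Alternatives were DESeq2 1.42.0, limma-voom (limma 3.58.1), other scalings and filters, a replicate block and leaving out libraries. On simulated counts for 17920 genes this comparison recovered 44% of 1.5-fold, 80% of 2-fold, 90% of 3-fold and 96% of 4-fold changes. Each fold had 50 changed genes, drawn from those with an expected count above 50. Of the 171 calls over all folds 16 were false, a larger share than the threshold of 0.05.

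The members and lists were chosen with earlier results of these data known. Named are all members, up to 4 genes by lowest p in each of the wider clock, output, glucocorticoid and immediate early lists, 3 genes by likeness to each of Arntl, Dbp and Per1, and marker genes where their list is described. Nr1d1, Nfil3, Wee1, Nampt, Gys2, Vpreb1, Errfi1, Fosb and Jun, and genes so marked in the text, were named after their values were seen.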

Additional observations from a re-analysis of the deposited data

Results flagged for a closer look

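Per1 in KO 1 stood apart from the other KO libraries on the log2 CPM scale, at 5 against 7.5, 7.75 and 7.76. Its gap to the nearest library made up 0.906 of the range of the 4 KO libraries, above Dixon's 95% critical value for 4 samples. Cry2 in KO 1 gave 0.835 by the same measure, at 3.60 against 4.09, 4.16 and 4.07. Chance flags about 1 in 20 groups, and each of the 10 genes was read in the KO group on both the CPM and the log2 CPM scale; on the CPM scale neither gene passed. The flox group, with 3 libraries, was not read this way.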

How the results depend on the processing

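Over all genes, 26 passed in edgeR, against 392 by DESeq2, 13 by limma-voom, 16 with a non-robust dispersion, 112 with no filter on low counts, and 2 to 14 when 1 library was left out. The cause was not tested. Of the clock genes 0 passed, 2 by DESeq2 (Arntl and Tef), and 0 under each of the other 14 alternatives. The log2 fold change of Arntl ran from 0.56 to 1.10 and that of Tef from 0.32 to 0.48 over 15 alternatives. For Arntl against the other members, 0 pairs passed, and 0 to 1 when 1 library was left out (1 without KO 1).

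Values near 0 changed sign. Dbp gave 0.01 with DESeq2 size factors, by DESeq2, with no filter and with the CPM filter, 0.02 by library size, 0.0035 without flox 2, 0.03 without flox 3, 0.02 without KO 2 and 0.10 without KO 4. Clock gave 0.03 without flox 1 and without KO 3, and Per2 -0.08 without flox 3 and -0.02 without KO 3. Leaving out 1 library, Clock ran from -0.06 to 0.03, Per2 from -0.08 to 0.07 and Dbp from -0.09 to 0.10. The r of Arntl turned to 0.71 with Cry1 and -0.15 with Cry2 when centred within genotype. Without flox 1 it was 0.01 with Clock, -0.07 with Per1 and 0.10 with Per2, without KO 1 -0.11 with Dbp, and without KO 3 -0.04 with Cry2. Its ranges with 1 library left out were -0.64 to 0.01 with Clock, -0.07 to 0.97 with Per1, -0.51 to 0.10 with Per2, -0.82 (without flox 1) to -0.03 (without flox 2) with Cry1, -0.04 to 0.68 with Cry2 and -0.11 to 0.67 with Dbp.

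Equal replicate numbers do not pair the libraries by design, and same-numbered libraries correlated at -0.0221, 0.0768 and 0.0228. With the replicate block, which leaves out KO 4, 4 genes passed, as many as without the block in the same 6 libraries; Dbp gave 0.10 and Per1 0.02.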

Other observations

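The other marker lists gave further context for the libraries in which clock genes were highest or lowest. KO 1 had the lowest value of all 7 libraries for 7 of 11 later neutrophil genes and for 7 of 9 neuronal genes, and the highest for 10 of 15 B lineage genes. Flox 1, the library with the lowest Arntl, had the highest mean log2 CPM of 9 megakaryocyte and platelet genes (6, against 5.08 and 5.39 in flox and 4.68 to 5.20 in KO) and of 8 endothelial genes (3.84, against 2.85 and 3.31 in flox and 2.86 to 3 in KO). Its means were also the highest for stromal (4.16), adipocyte (2.94) and monocyte and macrophage genes (7.41), and the lowest for B lineage (2.30) and T and NK cell genes (2.78). The 10 erythroid genes had fold changes above 0 and the 10 monocyte and macrophage genes fold changes below 0, with 0 genes of either list past the adjusted edgeR threshold and medians of 0.24 and -0.12. Primary granule genes of neutrophils had a median of -0.64 and T and NK cell genes one of 0.14, likewise with 0 past the threshold. Gut epithelial genes passed in 15 of 15, a list chosen with that result known, at a median of 1.24. Stromal genes had a median of -0.79, and skeletal muscle genes 0.51, again with 0 past the threshold. Of 9 neuronal genes 1 passed, with KO lower.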
